A study of Mus musculus with 6 samples.

Results

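The collagens are the structural proteins of the extracellular matrix, and their genes are numbered by collagen type and chain. They were examined here in the left ventricle of obese mice, with Lira against placebo. Every gene whose symbol has the collagen form (Col, a type number, a and a chain number) and that at least 1 probe set names alone was taken, which gave 42 of the 18193 genes on the array. They were split by type number into 11 fibrillar chains (types I, II, III, V, XI, XXIV and XXVII), 6 basement membrane chains (type IV) and 25 chains of other types. All 6 mice were C57BL/6 males, a common inbred laboratory strain, aged 6 months and kept for 16 weeks on a high fat diet. 3 of them received placebo and 3 received an agent given in the labels as Lira, a name they do not spell out. The controls therefore share strain, sex, age and diet with the treated mice, and no mouse on ordinary food is among them. The design text mentions 10 mice, and only these 6 were analysed here. Each array reports 1 mouse, so an SD below describes the spread between mice. A standard error (SE) or p-value from the fit also draws on the spread of other genes of like brightness.

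Collagen chains assemble into rope-like helices inside the endoplasmic reticulum, are secreted as procollagen, and are then trimmed and cross-linked outside the cell. In the heart, fibrils of types I and III, nucleated by type V, form the interstitial network that bears load, and cardiac fibroblasts make most of it. Sheets of type IV surround each cardiomyocyte and line the capillaries, and type VI microfilaments join the sheets to the fibrils. Extra fibrillar collagen is the hallmark of cardiac fibrosis.

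The promoters of the tested members with the smallest unadjusted p values that the RefSeq table lists are shown first, since the results turn on these genes. RefSeq promoters on GRCm38.p6 were matched for 33 of the 42 members, which gave 36 promoters. Each line gives the 250 bases before the annotated start of transcription, 5′ to 3′ on the gene's own strand. Capitals mark matches to TATAAA (the TATA box), CCAAT (the CCAAT box) or GGGCGG (the GC box), searched on both strands. The Col3a1 promoter lies at chr1:45311288-45311537 on the plus strand, that of Col8a1 at chr16:57754738-57754987 on the minus strand, and that of Col4a5 at chrX:141475169-141475418 on the plus strand.
Col3a1: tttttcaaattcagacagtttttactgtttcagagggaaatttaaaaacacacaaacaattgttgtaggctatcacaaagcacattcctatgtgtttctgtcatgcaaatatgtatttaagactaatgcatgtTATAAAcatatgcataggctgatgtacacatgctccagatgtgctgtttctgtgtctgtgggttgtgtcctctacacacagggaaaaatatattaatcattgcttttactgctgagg
Col8a1: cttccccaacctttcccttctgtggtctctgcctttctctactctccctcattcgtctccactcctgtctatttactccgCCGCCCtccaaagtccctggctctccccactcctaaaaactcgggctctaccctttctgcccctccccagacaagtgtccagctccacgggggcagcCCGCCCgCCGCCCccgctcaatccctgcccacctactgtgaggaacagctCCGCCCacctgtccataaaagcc
Col4a5: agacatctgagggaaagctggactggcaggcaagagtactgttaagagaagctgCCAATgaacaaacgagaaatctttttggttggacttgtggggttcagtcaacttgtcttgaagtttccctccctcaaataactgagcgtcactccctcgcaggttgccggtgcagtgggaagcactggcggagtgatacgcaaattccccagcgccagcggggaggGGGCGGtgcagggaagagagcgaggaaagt
The window of Col3a1 holds 1 TATAAA match and no match to the other motifs. The window of Col8a1 holds 4 GC boxes, all on the opposite strand, and that of Col4a5 holds 1 CCAAT box and 1 GC box. The 3 windows share no motif that occurs in all of them. Among 32851 RefSeq promoters of the same length, 12.4% held TATAAA, 33.8% held CCAAT and 32.7% held GGGCGG. Of the 36 collagen promoters, 5, 13 and 21 held them. These matches describe letters in a window and were not tested as binding sites.

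Signals are in arbitrary linear units whose mean after trimming 2% at each end was 150 on every array, and array medians ran from 28.6 to 39.6. Arrays carry no read depth, and their number limits the precision. Differences are Lira minus placebo on the log2(signal + 16) scale, on which a dim gene's change is understated, and p-values are from limma. Scaling removes any change in total signal, so a difference is relative to the other genes on the array. A probe's brightness depends on its sequence, so levels of different genes are not set against each other. In whole ventricle, fewer cells of a type and less RNA per cell cannot be told apart. The labels' extraction protocol names blood as its material, but the cardiomyocyte marker Myh6 stood at 31552 to 39205 units on all arrays, while the red cell markers Hba-a1 and Alas2 were too dim to be tested. The red cell markers Hbb-bs and Hbb-bt had no probe set naming them alone and could not be read. The platelet markers were tested, Pf4 at 329.7 to 438 units and Ppbp at up to 37.9 units over the 6 arrays. The blood content of the samples was not tested.

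A filter removed the dimmest 30% of genes, after which 27 of the 42 collagens were tested among 12736 genes. No collagen passed an adjusted p of 0.05 in limma with Benjamini-Hochberg adjustment, where 7 genes or 0.055% of all tested genes did, and adjusted p values of the collagens ran from 0.498 to 0.999. Before adjustment, 4 of the 27 were lower with Lira at a p under 0.05 (14.8%, against 3.13% of all tested genes): Col3a1, Col8a1, Col4a5 and Col5a2. At the same threshold 0 were higher, against 2.87% of all tested genes. All 3 Lira values lay below all 3 placebo values in 7 collagens, or 25.9% against 5.46% of all tested genes, and above them in 2, or 7.41% against 5.99%. Of the latter 2, Col19a1 passed the filter only through its Lira values. In direction alone, 19 were lower and 8 higher, and 70.4% lower compares with 48.0% over all tested genes. The median difference was -0.06 for the collagens and 0.01 for all tested genes, and without Lira replicate 3 the collagen median was 0.02.

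**Figure D1:**
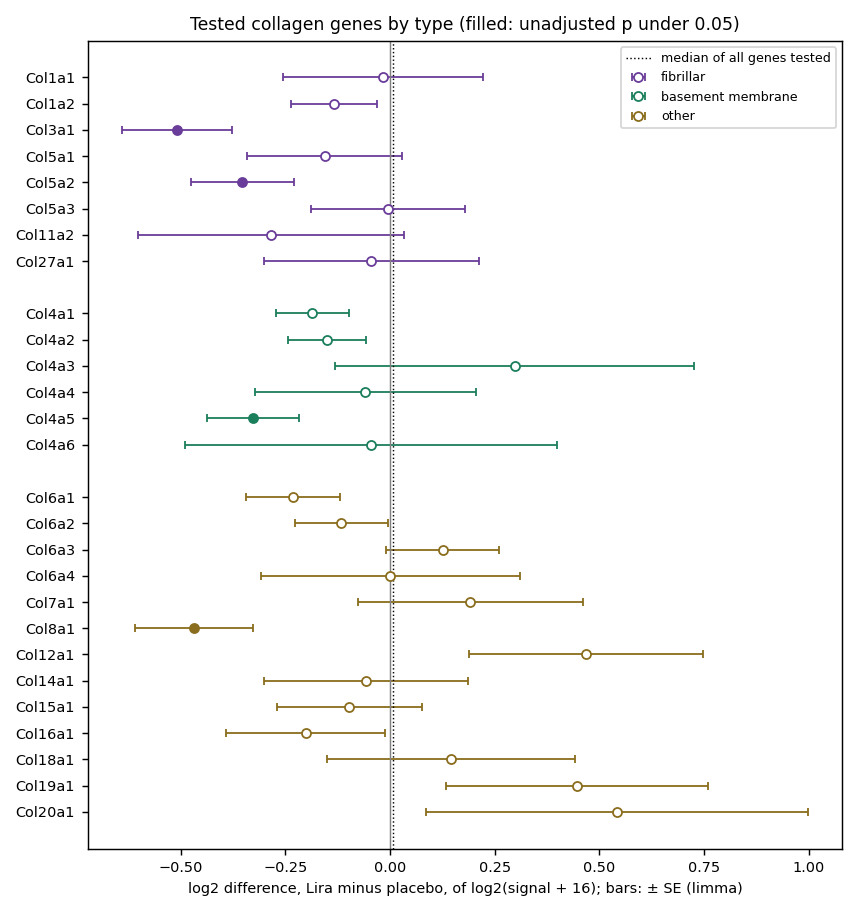
Log2 difference, Lira minus placebo, of the 27 tested collagens on the log2(signal + 16) scale, with the standard error from limma as bars, 1 row per gene, coloured by type. Filled points mark an unadjusted p under 0.05 (Col3a1, Col5a2, Col4a5 and Col8a1), the dotted line is the median of all tested genes, and all 8 fibrillar chains lie left of 0.

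The fibrillar chains are described first. All 8 tested chains had a lower mean log2 signal with Lira, with a median difference of -0.14, though 3 of them lay within 0.05 of 0. 2 of the 8 were lower at an unadjusted p under 0.05 (25%, against 3.13% of all tested genes). In the same 2 the Lira values all lay below the placebo values (25%, against 5.46% of all tested genes). Col3a1 (gene ID 12825) encodes the only chain of type III collagen, the fine fibrils of distensible tissue. Its signal was 1707, 1513 and 1571 units in the placebo mice and 1424, 944 and 1036 in the Lira mice. All Lira values were below all placebo values, and Lira replicate 1 was nearest to the placebo group. The means were 1597 ± 99.9 and 1135 ± 255 (SD, n = 3 per group), a 1.42-fold lower level on the fitted scale. The log2 difference was -0.51 ± 0.13 (SE; 95% interval -0.79 to -0.22), with an unadjusted p of 0.0019 and an adjusted p of 0.498 in limma. A second, dimmer probe set of Col3a1 read 79.0, 83.6 and 81.3 units with placebo and 71.8, 65.6 and 47.4 with Lira. It gave a log2 difference of -0.34 with an unadjusted p of 0.108, again without overlap.

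Col5a2 (gene ID 12832) is the next protein-coding gene beside Col3a1 in the RefSeq annotation and encodes a chain of type V, which sits in the core of type I fibrils and sets their diameter. It read 288, 275 and 276 units with placebo and 239, 201 and 208 with Lira. The groups did not overlap, and the placebo values were close together. The means were 279 ± 7.11 and 216 ± 20.6 (SD, n = 3 per group). The log2 difference was -0.35 ± 0.12 (SE; 95% interval -0.62 to -0.09), with an unadjusted p of 0.0129 and an adjusted p of 0.663 in limma. Its other probe set went the opposite way without overlap, at 42.6, 45.9 and 40.8 units with placebo and 51.5, 49.4 and 51.4 with Lira. That difference was 0.18 with an unadjusted p of 0.422, and the mean of both probe sets gave -0.09 with an unadjusted p of 0.464. The lower value of Col5a2 thus holds for its brighter probe set.

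The other type V chains were Col5a1, at 260 ± 63.7 units with placebo and 232 ± 56.1 with Lira, and Col5a3, at 107 ± 3.74 and 109 ± 27.2 (SD, n = 3 per group). Their log2 differences were -0.16 ± 0.19 and -0.01 ± 0.18 (SE), and both overlapped between groups. A second probe set of Col5a1 read 135, 158 and 173 units with placebo and 130.3, 123 and 117 with Lira, a log2 difference of -0.29 with an unadjusted p of 0.0761. On that probe set the groups did not overlap.

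Type I collagen, the main load-bearing fibril, is built from the chains Col1a1 and Col1a2. Col1a2 read 1227, 1142 and 1112 units with placebo and 1182, 944 and 1055 with Lira. The groups overlapped, and the log2 difference was -0.13 ± 0.10 (SE; 95% interval -0.35 to 0.088) with an unadjusted p of 0.217. A second probe set of Col1a2 gave a log2 difference of 0.00. Col1a1 has a pair of probe sets of nearly equal brightness, with means over all arrays of 92.5 and 91.3 units, and they disagreed. The marginally brighter one, used in the fit, read 118, 113 and 54.2 units with placebo and 89.4, 104 and 76.7 with Lira, a log2 difference of -0.02 ± 0.24 (SE; 95% interval -0.53 to 0.50). Its placebo replicate 3 was the lowest of all 6 values. The other one read 115, 93.5 and 124 units with placebo and 84.7, 74.0 and 56.9 with Lira, without overlap, a log2 difference of -0.53 ± 0.19 (SE) and an unadjusted p of 0.0152 in the fit over probe sets. With that probe set in place of the other, a choice made after its values were seen, 5 collagens were lower at an unadjusted p under 0.05 and the collagen median was -0.10.

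The remaining tested fibrillar chains, Col11a2 and Col27a1, are best known from cartilage. Col11a2 read 43.2 ± 20.4 units with placebo and 30.5 ± 4.27 with Lira, and Col27a1 read 107 ± 31.9 and 106 ± 48.1 (SD, n = 3 per group). The log2 difference was -0.28 ± 0.32 for the former and -0.04 ± 0.26 for the latter (SE). Col2a1, Col11a1 and Col24a1 were left out by the filter on low values, so the 8 of 8 above are not all fibrillar chains. Col11a1 at 25.8 ± 3.37 and 11.5 ± 9.34 units and Col24a1 at 11.1 ± 1.11 and 3.23 ± 3.78 (SD, n = 3 per group) did not overlap between groups, and no p was given to them in the fit over genes. When every probe set was fitted on its own, that of Col11a1 passed the filter only through its placebo values, so its p is not read as support.

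**Figure D2:**
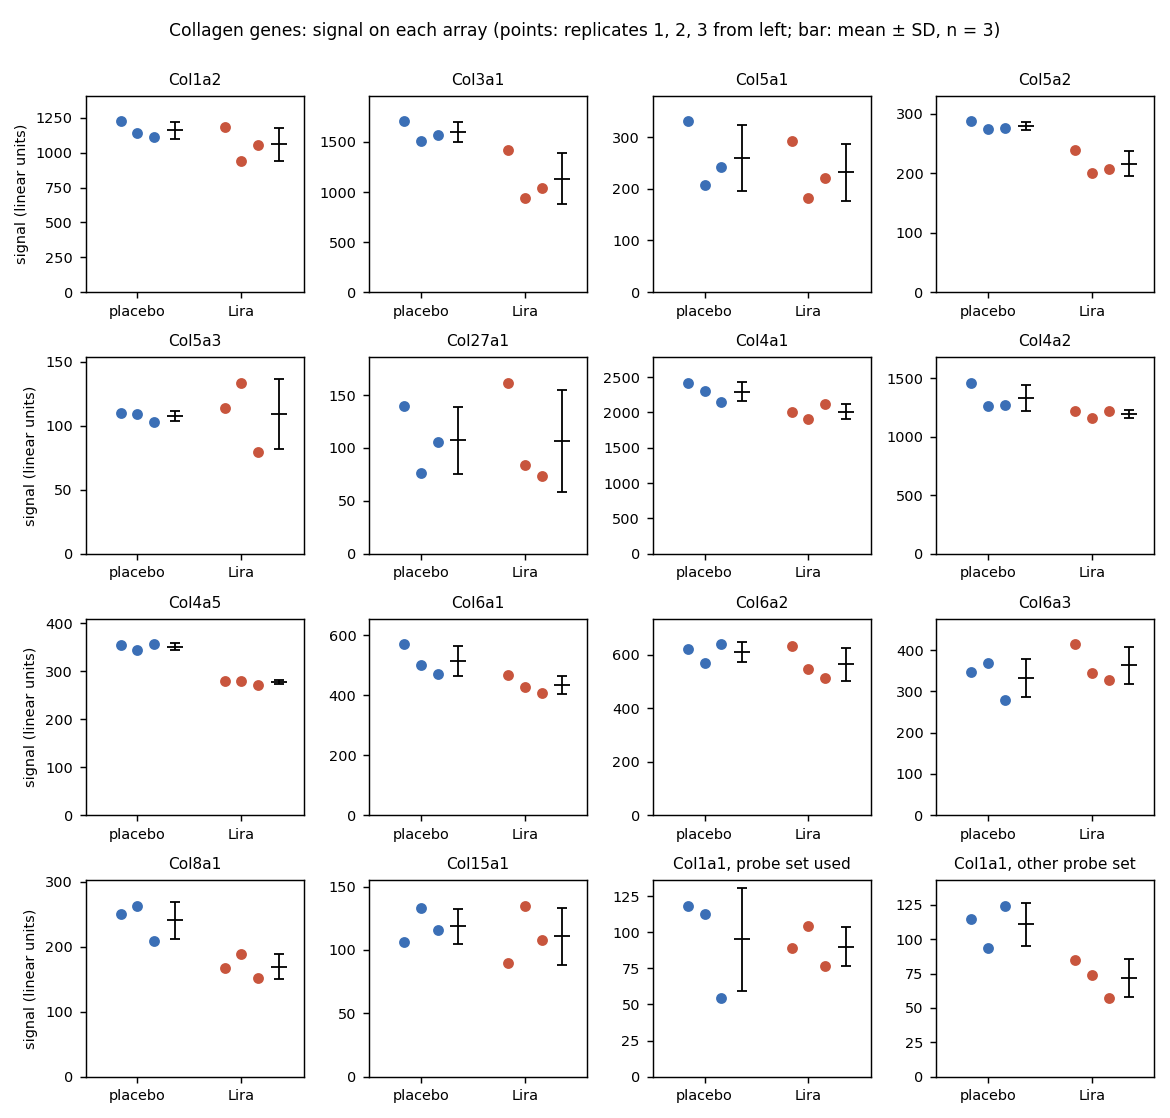
Linear signal (vertical axis, from 0) of 15 collagen genes on each of the 6 arrays, blue for placebo and red for Lira, replicates 1 to 3 from left, with the mean ± SD beside each group; Col1a1 has a panel for each of its probe sets. The groups do not overlap for Col3a1, Col5a2, Col4a1, Col4a2, Col4a5, Col6a1, Col8a1 and the other probe set of Col1a1.

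Type IV chains came next, as neighbouring pairs in the RefSeq annotation, Col4a1 with Col4a2, Col4a3 with Col4a4 and Col4a5 with Col4a6. All 6 were tested, 5 were lower and 1 higher, with a median difference of -0.10. In 3 the Lira values all lay below the placebo values (50%, against 5.46% of all tested genes). Col4a5 (gene ID 12830), whose loss causes the kidney disease Alport syndrome, read 355, 343 and 356 units with placebo and 280.1, 279 and 272 with Lira. The values were tight within both groups, with means of 351 ± 6.97 and 277 ± 4.40 (SD, n = 3 per group). The log2 difference was -0.33 ± 0.11 (SE; 95% interval -0.56 to -0.09), 1.25-fold lower, with an unadjusted p of 0.0103 and an adjusted p of 0.631 in limma. Its other probe set read 172, 151 and 131 units with placebo and 126, 159 and 134 with Lira, which overlap, a log2 difference of -0.11. With the mean of both probe sets the difference was -0.22 and the unadjusted p 0.0673.

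Col4a1 and Col4a2 make the common type IV network of basement membranes. Col4a1 read 2421, 2306 and 2149 units with placebo and 2013, 1909.9 and 2118 with Lira, without overlap, although Lira replicate 3 was close to placebo replicate 3. Its log2 difference was -0.19 ± 0.09 (SE; 95% interval -0.37 to 0.0039), with an unadjusted p of 0.0543 in limma. Its second probe set gave -0.26, with overlapping groups. Col4a2 read 1460.4, 1266 and 1271 units with placebo and 1217, 1155 and 1217 with Lira, again without overlap, a log2 difference of -0.15 ± 0.09 (SE) and an unadjusted p of 0.130. Col4a3 and Col4a4 of the kidney network and Col4a6 were dim and scattered. Col4a3 read 24.05 ± 14.4 units with placebo and 34.8 ± 22.2 with Lira, Col4a4 49.4 ± 19.6 and 45.3 ± 6.76, and Col4a6 25.5 ± 11.7 and 28.1 ± 23.96 (SD, n = 3 per group). Their log2 differences were 0.30 ± 0.43, -0.06 ± 0.26 and -0.04 ± 0.44 (SE), each within its standard error of 0.

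The 25 chains of other types gave no common direction. Of the 13 tested, 6 were lower and 7 higher with a median difference of 0.0007. At an unadjusted p under 0.05, 1 was lower (7.69%, against 3.13% of all tested genes). That gene was Col8a1 (gene ID 12837), a short-chain collagen that forms hexagonal lattices in vessel walls and is made by cardiac fibroblasts and smooth muscle. Its signal was 249.8, 263 and 208 units with placebo and 167, 189 and 151 with Lira. The lowest placebo value stood above the highest Lira value. The means were 240.2 ± 28.4 and 169 ± 18.8 (SD, n = 3 per group), a 1.38-fold lower level with Lira on the fitted scale. The log2 difference was -0.47 ± 0.14 (SE; 95% interval -0.77 to -0.17), with an unadjusted p of 0.0053 and an adjusted p of 0.569 in limma. A second probe set read 165, 126 and 128 units with placebo and 86.7, 86.6 and 101 with Lira, without overlap, a log2 difference of -0.53 and an unadjusted p of 0.0076. Its dimmest probe set was too dim to use, with a mean of 2.17 units. Its partner chain Col8a2 was left out by the filter.

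Type VI collagen, a microfilament made of Col6a1, Col6a2 and one further chain, was mixed. Col6a1 read 569, 500.4 and 471 units with placebo and 468, 427 and 409 with Lira, without overlap, a log2 difference of -0.23 ± 0.11 (SE) and an unadjusted p of 0.0607 in limma. Its genomic neighbour Col6a2 read 611 ± 35.8 units with placebo and 564 ± 62.8 with Lira, and Col6a3 read 332 ± 46.3 and 363 ± 45.2 (SD, n = 3 per group). Their log2 differences were -0.12 ± 0.11 and 0.13 ± 0.13 (SE), and their groups overlapped. Col6a4 read 27.2 ± 5.04 and 27.5 ± 7.80 units (SD, n = 3 per group).

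The multiplexins Col15a1 and Col18a1, proteoglycan-like collagens of basement membrane zones, overlapped between groups. Col15a1 read 119 ± 13.5 units with placebo and 111 ± 22.7 with Lira, and Col18a1, the precursor of endostatin, read 51.8 ± 30.4 and 54.8 ± 9.02 (SD, n = 3 per group). On the log2 scale they differed by -0.10 ± 0.17 and 0.15 ± 0.30 (SE). Col7a1, the anchoring fibril collagen of skin, had a log2 difference of 0.19 ± 0.27 (SE). 5 chains of the kind that decorates fibrils without forming them were tested. Col12a1 read 23.6, 25.8 and 24.97 units with placebo and 44.4, 46.9 and 31.3 with Lira, and Col19a1 read 14.3, 22.7 and 20.4 with placebo and 34.1, 34.1 and 26.996 with Lira. These were the 2 collagens in which every Lira value exceeded every placebo value. Their log2 differences were 0.47 ± 0.28 and 0.45 ± 0.31 (SE), with unadjusted p of 0.118 and 0.177 in limma, at signals close to the filter. Without the variance trend in limma their unadjusted p was 0.0122 and 0.0148. With probe sets averaged per gene, Col19a1 differed by 0.04 with an unadjusted p of 0.903. The other probe sets of Col19a1 gave -0.16 and -0.18, and those of Col12a1 gave -0.13, -0.42 and 0.09. The other 3 were Col14a1, Col16a1 and Col20a1. Col14a1 read 96.5 ± 15.6 units with placebo and 96.5 ± 40.1 with Lira, and Col16a1 100.5 ± 9.11 and 86.5 ± 20.2 (SD, n = 3 per group). Col20a1 read 132, 18.5 and 16.0 units with placebo and 50.3, 67.1 and 75.4 with Lira, so that 1 placebo mouse sets its placebo mean. Its log2 difference was 0.54 ± 0.46 (SE), and it was 1.26, 0.21 and 0.16 without placebo replicates 1, 2 and 3.

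The 15 collagens left out by the filter were Col2a1, Col11a1 and Col24a1 of the fibrillar class, and Col6a5, Col8a2, Col9a1, Col9a2, Col9a3, Col10a1, Col13a1, Col17a1, Col22a1, Col23a1, Col25a1 and Col26a1. Many of these are known from cartilage, skin or nerve. Their mean signals ran from 3.44 to 27.4 units, 11 were lower and 4 higher with Lira, and none entered the fit over genes. The probe sets that stand for Col9a1, Col11a1, Col13a1, Col22a1, Col23a1 and Col25a1 passed the filter when every probe set was fitted on its own. Those of Col9a1, Col11a1, Col13a1 and Col22a1 did so only through their placebo values, so their p values are not read as support. The log2 difference of Col22a1 was -0.88, but its other probe sets gave 0.28 and 0.02. The other probe set of Col9a1 gave 0.31. Col23a1 and Col25a1 had unadjusted p of 0.833 and 0.928 in limma. Over all 42 collagens without a filter, 30 were lower and 12 higher with a median difference of -0.10, beside 0.0044 over all 18193 genes.

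Among the tested collagens the direction differed between brighter and dimmer ones. Of the 14 collagens with a mean signal of at least 100 units, a level chosen after the values were seen, 13 were lower with Lira and Col6a3 was higher, with a median difference of -0.15. All 4 genes with an unadjusted p under 0.05 and all 7 with separated lower groups were among them. Over the 7948 tested genes of at least 100 units, 46.5% were lower, 3.75% were lower at an unadjusted p under 0.05, 5.95% had separated lower groups, and the median difference was 0.01. Among the 13 tested collagens under 100 units, 6 were lower and 7 higher, and among the 15 left out by the filter 11 were lower and 4 higher. The summed signal of the 42 collagens was 10849, 10021 and 9763 units in the placebo mice and 9579.6, 8427 and 8503 in the Lira mice, so the lowest placebo sum lay above the highest Lira sum. This sum is carried mainly by the brightest chains.

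The mice were not equally far apart. The median deviation of the 14 brighter collagens from their own means was 0.19, 0.09 and 0.02 log2 units in placebo replicates 1, 2 and 3, and 0.03, -0.15 and -0.19 in Lira replicates 1, 2 and 3. Lira replicate 1 thus stood level with placebo replicate 3. Placebo replicate 1 gave the highest value in 7 of the 14 genes, and Lira replicates 2 and 3 gave the lowest in 6 each. The corresponding medians over all tested genes stayed between -0.0038 and 0.03 on the 6 arrays. Without Lira replicate 1 the log2 difference of Col3a1 was -0.68 with an adjusted p of 0.0727 in limma. With any other single array left out instead, it was -0.39 to -0.55, with adjusted p of 0.607 to 0.776 in limma.

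**Figure D3:**
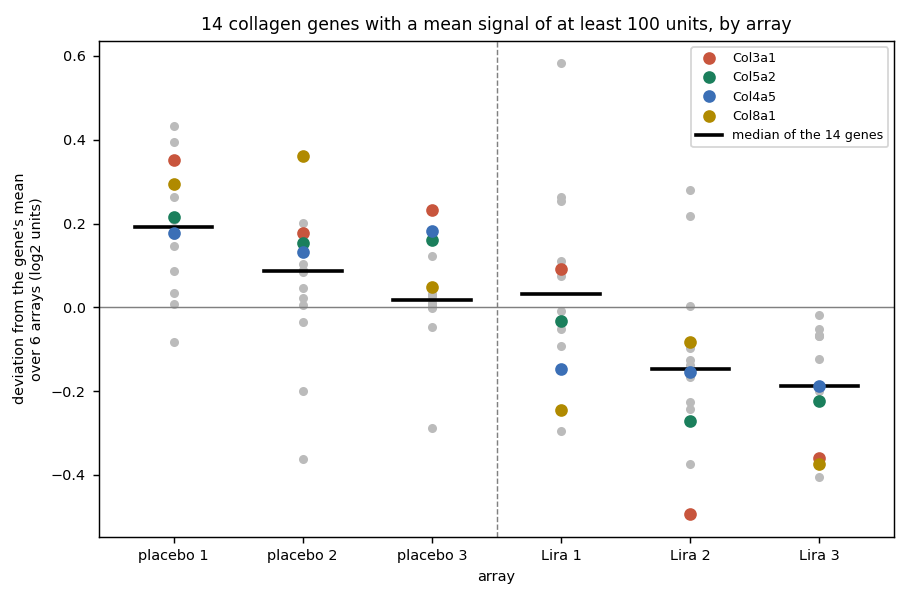
Deviation of each of the 14 brighter collagens from its own mean over the 6 arrays (vertical axis, log2 units) by array, with Col3a1, Col5a2, Col4a5 and Col8a1 coloured, the other 10 in grey and the median of the 14 as a black bar. The median bar runs from 0.19 in placebo replicate 1 to -0.19 in Lira replicate 3.

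Many collagens are read by more than 1 probe set, which checks a value within the same arrays. The 42 genes have 82 probe sets, 15 genes with 1 and 27 with more, and 51 passed the filter when every probe set was tested on its own. Of these, 36 were lower and 15 higher. At an unadjusted p under 0.05, 6 were lower, where 3.05% of all tested probe sets were, and 0 were higher, where 2.57% were. The median difference was -0.10 for the collagen probe sets and 0.0061 for all probe sets, and the lowest adjusted p of a collagen probe set in limma was 0.603. The brighter probe sets of Col3a1 and Col8a1 shared their direction with the second ones, whereas those of Col5a2 were opposed and those of Col1a1 differed in size.

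**Figure D4:**
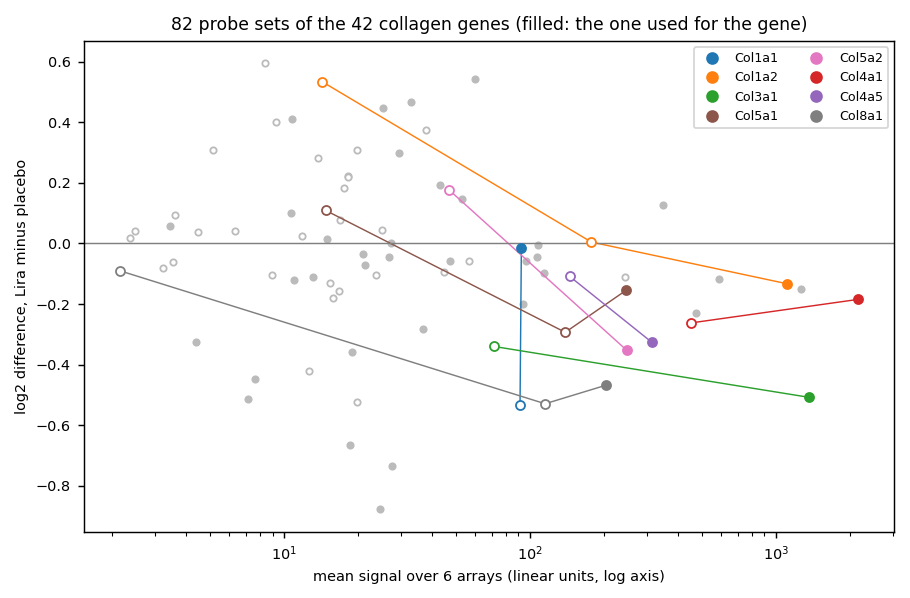
Log2 difference, Lira minus placebo, of all 82 collagen probe sets against their mean signal over 6 arrays (log axis), filled where the probe set stands for its gene, with the probe sets of 8 genes coloured and joined. Those of Col8a1 at 116 and 205 units lie at -0.53 and -0.47, and those of Col1a1 near 92 units lie far apart, at -0.02 and -0.53.

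The proportion between chains of related fibrils or networks is given for 6 pairs, as the difference between their log2 signals on each array. The pairs were chosen after the values were seen, so these values are a description. An exact permutation test over the 6 arrays cannot give a p under 0.1, and no pair had an adjusted p under 0.2 in it. Col3a1 relative to Col1a2 was lower with Lira by a log2 difference of -0.38, and Col4a5 relative to Col4a1 differed by -0.16. Col6a3 relative to Col6a1 differed by 0.37. In these 3 pairs the groups did not overlap, but for Col4a5 relative to Col4a1 they nearly touched, at -2.771 in placebo replicate 1 and -2.776 in Lira replicate 2. Col4a1 relative to Col4a2 differed by -0.03, Col3a1 relative to Col5a2 by -0.14 and Col5a2 relative to Col5a1 by -0.21, with overlapping groups.

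The proteins that make, bind and remove collagen were read from lists, in the order of a collagen's life, and no member of any of them passed an adjusted p of 0.05 in limma. Of 29 enzymes and chaperones that fold and process procollagen, 24 were tested, 12 lower and 12 higher, with a median difference of 0.0017. 1 was lower at an unadjusted p under 0.05 (4.17%, against 3.13% of all tested genes), Pcolce2, an enhancer of procollagen cleavage, at 417 ± 38.3 units with placebo and 347 ± 21.3 with Lira (SD, n = 3 per group), a log2 difference of -0.25 ± 0.12 (SE). Of 5 lysyl oxidases, which cross-link fibrils, 3 were tested and 0 had an unadjusted p under 0.05 in limma. The brightest were Loxl1, at 416 ± 41.3 and 357 ± 46.6 units, and Loxl3, at 73.9 ± 4.62 and 84.3 ± 27.8 (SD, n = 3 per group). Of 11 collagen receptors, 9 were tested, 3 lower and 6 higher. The collagen-binding kinase Ddr1 read 584, 592 and 631 units with placebo and 491, 310.4 and 513 with Lira. Its log2 difference was -0.48 ± 0.16 (SE) with an unadjusted p of 0.0096 in limma. It was the only receptor with a p under 0.05 (11.1% lower, against 3.13% of all tested genes). Of 8 collagen-degrading proteases, 5 were tested, 2 lower and 3 higher. Mmp14, a membrane-bound collagenase, was higher at 165 ± 33.0 units with Lira against 123 ± 3.63 with placebo (SD, n = 3 per group). Its log2 difference was 0.36 ± 0.16 (SE) with an unadjusted p of 0.0413 in limma. It was the only 1 of the 5 with a p under 0.05, where 2.87% of all tested genes were higher.

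Proteins that lie on collagen fibrils went both ways, with 5 of 10 lower and 5 higher. At an unadjusted p under 0.05, 2 were lower and 2 higher, beside 3.13% and 2.87% of all tested genes. Sparc, which binds procollagen and aids its assembly, read 1982, 1759.6 and 2189 units with placebo and 1435, 1403 and 1512 with Lira, a log2 difference of -0.44 ± 0.10 (SE) and an adjusted p of 0.292 in limma, the lowest of these lists and of the collagens. Postn, periostin, a matrix protein of activated fibroblasts, was lower by a log2 difference of -0.36 ± 0.12 (SE). Thbs2, thrombospondin 2, was higher at 239 ± 38.0 units with Lira against 148 ± 23.5 (SD, n = 3 per group), and Dcn, the fibril-coating proteoglycan decorin, was higher at 7976 ± 703 against 6790.3 ± 101. Of the 11 partners of type IV collagen in basement membranes, 8 were lower and 3 higher, with a median difference of -0.11 beside -0.10 for the type IV chains. At an unadjusted p under 0.05, 2 were lower (18.2%, against 3.13% of all tested genes), Hspg2 and Pxdn. Hspg2, perlecan, was 606 ± 59.0 units with placebo and 441 ± 60.2 with Lira, and Pxdn, the peroxidase that cross-links type IV collagen, 425 ± 32.8 and 348 ± 42.5 (SD, n = 3 per group). Their log2 differences were -0.45 ± 0.12 and -0.28 ± 0.12 (SE), with unadjusted p of 0.0027 and 0.0386 in limma.

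**Figure D5:**
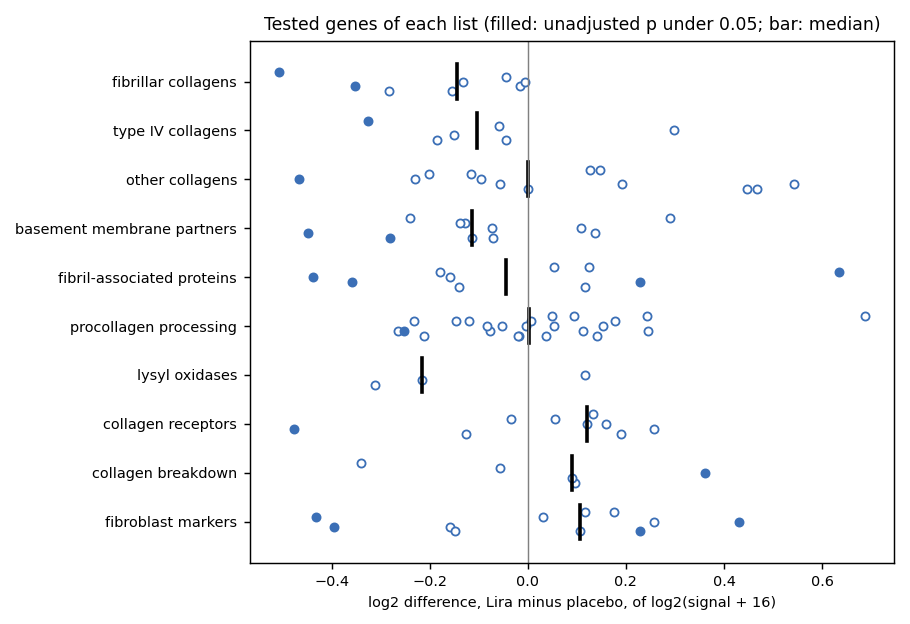
Log2 difference, Lira minus placebo, of every tested gene in the 3 collagen classes and 7 companion lists, 1 point per gene, filled where the unadjusted p is under 0.05, with the list's median as a black bar. Medians run from -0.22 for the 3 lysyl oxidases to 0.12 for the 9 receptors.

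Marker lists of the cell types present in ventricle were read on the same arrays. The fibroblast list, which holds no collagen, had 11 of 12 markers tested, 4 lower and 7 higher, with a median difference of 0.11. Its summed signal was 25281 to 26086 units with placebo and 26158 to 28039 with Lira, without overlap. Without Dcn the sums were 18453 to 19219 and 18855 to 19460 units, which overlap, and Gsn makes up most of them. At an unadjusted p under 0.05 in limma, 2 of the 11 were lower and 2 higher, beside 3.13% and 2.87% of all tested genes. Mfap5 and Pi16 were lower, with log2 differences of -0.40 and -0.43, and Fbln1 and Dcn higher, with 0.43 and 0.23. Smooth muscle and pericyte markers were 3 lower and 6 higher of 9 tested, with sums of 13439 to 14827 and 15111 to 17084 units. Without Acta2 the sums were 12365 to 13705 and 13532 to 14446 units, which overlap. Acta2 itself, the smooth muscle actin, read 1122, 1074 and 1391 units with placebo and 3377, 1579 and 1518 with Lira. It differed by 0.75 on the log2 scale, and by 0.38 without Lira replicate 1. Cardiomyocyte markers were 1 lower and 8 higher of 9, with a median difference of 0.11, and Ryr2, the calcium release channel, was higher with a log2 difference of 0.19 at an unadjusted p of 0.0253 in limma. Their sums were 211800 to 222730 and 211980 to 262450 units. Endothelial markers were 1 lower and 8 higher of 9, with sums of 19796 to 20937 and 20021 to 22664 units, which overlap. Cldn5 was higher, at 169 ± 41.2 units with placebo and 235 ± 0.48 with Lira (SD, n = 3 per group), without overlap. Its log2 difference was 0.47 at an unadjusted p of 0.0126 in limma. Macrophage markers were 0 lower and 8 higher of 8, none at an unadjusted p under 0.05, with sums of 3792.5 to 4464 and 4166 to 5153 units. Cartilage and valve markers, which could carry other collagens, were 3 of 7 tested, all higher, while Chad, Matn1, Sox9 and Hapln1 were too dim to test. Cnmd read 18.1 ± 8.30 units with placebo and 54.7 ± 6.96 with Lira (SD, n = 3 per group). It passed the filter only through its Lira values, so its direction is not read as support. Atrial markers were 3 of 6 tested, with Sln, Myl7 and Dkk3 too dim. Their sum was 2811 to 3227 units with placebo and 1640 to 2275 with Lira, mostly Nppa. Without Nppa the sums were 165.3 to 200.4 and 133.1 to 253.7 units, which overlap. Nppa differed by -0.67 on the log2 scale and Myl4 by 0.27, each without overlap between groups. Bmp10 differed by -0.61, with overlap, and passed the filter only through its placebo values. The part of these cell types in the collagen values was not tested.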

How the data were processed

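Left ventricular RNA of 6 mice was hybridised to Affymetrix mouse arrays, 1 per mouse. Per the submitters' processing notes, the authors used Affymetrix Expression Console; the deposited column of each array holds linear signal intensity. Its version, algorithm and the genome build were not given in the sources used here. Of 45101 probe sets, 64 controls were left out; 34945 name 1 gene and 932 several, and the latter were not used. Each gene was represented by its probe set of highest mean. Values were taken as log2(signal + 16), the 30% of genes lowest in mean log2 value (under 21.9 units) were dropped, and all remaining genes were fitted in limma 3.58.1 (R 4.3.3) with a trend in the prior variance; tests were two-sided with Benjamini-Hochberg adjustment at 0.05. The fit was tested on simulated data. Members, lists and the naming rule were chosen with earlier results of these data known. The rule names every tested fibrillar and type IV chain and tested chains of types VI, VIII, XV and XVIII. It also names collagens with separated groups or an unadjusted p under 0.05, and the 3 brightest others. Of each list it names members with an unadjusted p under 0.05 (up to 4) or else the 2 brightest. Col7a1, Col8a2, Col11a1, Col24a1, Acta2, Cldn5, Cnmd, Nppa, Myl4, Bmp10, Ryr2, Pf4, Ppbp, Gsn and Myh6 were added after their values were seen or as markers.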

Additional observations from a re-analysis of the deposited data

How the results depend on the processing

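Alternatives changed the scaling, pseudocount, filter, probe set rule, variance model, array weights or replicate number, or left out 1 array. Of 26 named collagens, 14 kept their sign in every refit, and 0 reached an adjusted p under 0.05 in limma in any. Col3a1 and Col8a1 had an unadjusted p under 0.05 in 17 of 17 refits with 1 probe set or mean per gene, Col4a5 and Col5a2 in 16. Collagens lower at that p numbered 4 to 6 throughout. Collagens higher numbered 0, but 2 with no variance trend and 0 to 1 with an array left out. Genes called were 7. They were 1 with no filter, 4 with the replicate block, 2 with every probe set on its own, 1 to 9 with an array left out and 5 to 9 under the other alternatives but those named next. They were 0 with probe sets averaged per gene and 0 with no variance trend, where 2.86% and 2.80% of genes were lower and 2.51% and 2.61% higher at an unadjusted p under 0.05 in limma. The collagen median ran from -0.16 to 0.025 with an array left out, above 0 without Lira replicate 3. Deviations from the group means showed no shared pattern between mice of the same replicate number (correlations -0.04, 0.09 and -0.09). Whether the mice were paired in the experiment cannot be told from these values.

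The other 12 changed sign at least once. With the mean of probe sets Col1a2 was 0.13 and Col4a4 0.17. With pseudocount 64 Col5a3 was 0.0013 and Col4a6 0.015, and with array weights Col5a3 was 0.00044 and Col27a1 0.13. Col6a4 was -0.019 with median centring and -0.0073 with pseudocount 1. With an array left out, the log2 difference of Col1a1 ran from -0.32 to 0.15, Col5a1 from -0.33 to 0.022, Col5a3 from -0.15 to 0.17, Col27a1 from -0.35 to 0.15, Col4a3 from -0.047 to 0.74, Col4a4 from -0.19 to 0.18, Col4a6 from -0.44 to 0.45, Col6a4 from -0.12 to 0.15, Col15a1 from -0.23 to 0.026, Col18a1 from -0.13 to 0.49 and Col14a1 from -0.31 to 0.24. The cause was not tested. Signal over background limits the dim chains, and 3 mice per group limit all.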
